A study of Mus musculus with 38 samples.

Results

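A set of 2403 binding sites of the transcription factor CREB was found in mouse liver and was missing from the CREB lists of isolated hepatocytes. These sites came from the list of 11339 CREB sites in liver of mice fasted for 24 h. A site was a member if it shared at least 1 base with a CREB site of fed liver and no base with a site of any of 3 hepatocyte CREB lists. Of the 11339 sites, 6949 overlapped a fed site, and 4546 of these also overlapped at least 1 hepatocyte site, which left the 2403 members. The remaining 4390 sites overlapped no fed site, are called fasted-only here and are given beside the members for scale. Hepatocyte lists played no part in defining this class: 3278 of these sites overlapped no hepatocyte CREB site, and the rest did. The 11 peak lists used held 278566 regions in all.

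Livers were taken from C57BL/6 mice that were fasted for 24 h or 10 h, or had food freely available. Hepatocytes of the same strain, the main cell type of liver, were isolated by perfusing the organ with collagenase, and were then kept for 1 h with 10 nM glucagon and 1.7 uM corticosterone or with 10 nM glucagon alone, or were left untreated. Chromatin immunoprecipitation with sequencing was done for CREB and phosphorylated CREB (phospho-CREB) in liver fasted for 24 h and in fed liver, for H3K27ac in fed liver and liver fasted for 10 h and 24 h, for CREB in the 3 hepatocyte groups, and for the glucocorticoid receptor (GR) in hepatocytes given both hormones. The 4 liver CREB and phospho-CREB groups and the 3 H3K27ac groups had 3 libraries each, and the hormone-treated hepatocyte groups had 2 each. Untreated hepatocytes had 1 library, and the labels do not give the sex, the age or the number of mice.

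CREB binds the cAMP response element, and in liver it is best known for raising genes of glucose production when glucagon signals fasting. Kinases of the cAMP pathway phosphorylate it at a serine, and this form recruits coactivators that acetylate histones. GR, the receptor for corticosterone, cooperates with it at some fasting enhancers, and H3K27ac marks active promoters and enhancers. Whole liver also holds Kupffer, endothelial, stellate and bile duct cells, which a hepatocyte preparation largely leaves out.

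Each group had 1 deposited list with 1 value per region, so no spread between libraries could be computed for any site. The list names give 2 of the 3 libraries for liver CREB and phospho-CREB, and all H3K27ac libraries as a pool. The lists ran between 6812 regions for phospho-CREB in fasted liver and 47777 for H3K27ac at 10 h, and the hepatocyte CREB lists (28229 to 47596 regions) were longer than those of liver. Sequencing depth is not known. Density below is the highest tag density that the authors gave a region, and its percentile is its rank within its own list. Shares have 95% Wilson intervals and differences 95% Newcombe intervals, both of which cover counting error only. Neighbouring sites are not independent, so the intervals are too narrow.

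Among the sites present in fasted and fed liver, overlap with the hepatocyte lists was close to all or none. All 3 hepatocyte lists held 4011 of the 6949 sites (57.7%), 185 sites (2.66%) were in 2 lists, 350 (5.04%) in 1 list, and 34.6% were in none. Untreated hepatocytes alone held 62.4% of the 6949 sites, glucagon-treated hepatocytes 60.5% and those with both hormones 60.6%. The absence is from the CREB lists only: 446 members lay at a GR site of hepatocytes. The nearest hepatocyte CREB site was a median of 9613 bp away (quartiles 2705.5 and 27704.5 bp), and 166 members (6.91%) had one within 500 bp. For the 3278 fasted-only sites that overlapped no hepatocyte CREB site, the median was 12583 bp, and a near share, 5.83%, had one within 500 bp. Just inside the rule were chr6:31546066-31546541, with 3 bp to a hepatocyte site, and chr5:15152064-15152632, with 6 bp. Just outside it were chr17:53289830-53290185, which shared 6 bases with a hepatocyte site, and chr1:85021745-85022144, which shared 8.

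The members were of middle density in the fasted list. The members were chosen by CREB calls in this list, the fed list and the hepatocyte lists, so their CREB values are a description. Their median density was 7.77 (quartiles 4.01 and 14.4), at a median percentile of 47.1. The medians were 16.8 and percentile 74.98 for sites also in hepatocytes, and 3.51 and percentile 24.6 for fasted-only sites. The median width was 517 bp in the members, 678.5 bp in sites also in hepatocytes and 352 bp in fasted-only sites. The range of the members was wide, between 1.25 and 12969, and 12 of the 14 sites of the whole list with a density over 1000 were members. The top 4 were chr10:121200000-121200532 (12969), chr13:45493744-45494322 (8042), chrX:141949418-141949913 (6571) and chr14:46432125-46432698 (5458).

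The order of the members by density was much the same in the fasted and the fed list. Of the members, 2307 met 1 fed site and 96 met more than 1, and the midpoints were a median of 40 bp apart. The percentile in the fasted list minus that in the fed list had a median of 0.449 (quartiles -5.04 and 6.97), and 70.4% of members differed by no more than 10 points. Across the 2403 members Spearman's rho between the percentiles was 0.918, a description over sites that share each list's libraries. The ends of the range were chrX:140457797-140458250, at percentile 61.3 in the fasted and 5.13 in the fed list, and chrX:121200318-121200806, at percentile 38.5 in the fasted and 82.6 in the fed list.

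The members were not spread evenly over the genome. Chromosome X held 622 of them (25.9%), against 193 of the 4546 sites also in hepatocytes (4.25%). Chromosome Y held 109 members (4.54%), against 12 sites also in hepatocytes (0.264%) and 1.25% of the whole list. In all, 24 windows of 1 Mb held 10 or more members and 1057 members together (44.0%). The windows were picked for their members, so the lower shares of the other classes in them, 3.63% of sites also in hepatocytes and 9.07% of fasted-only sites, are a description. The windows held 14.3% of the fasted CREB list, and 18.8% of the fasted and 16.8% of the fed phospho-CREB list. They were on 10 chromosomes, with 497 members in 5 windows of X, 126 in 2 of chromosome 4, 116 in 4 of chromosome 5, 109 in 2 of Y and 82 in 4 of chromosome 8. The other 1346 members are called scattered here.

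**Figure D1:**
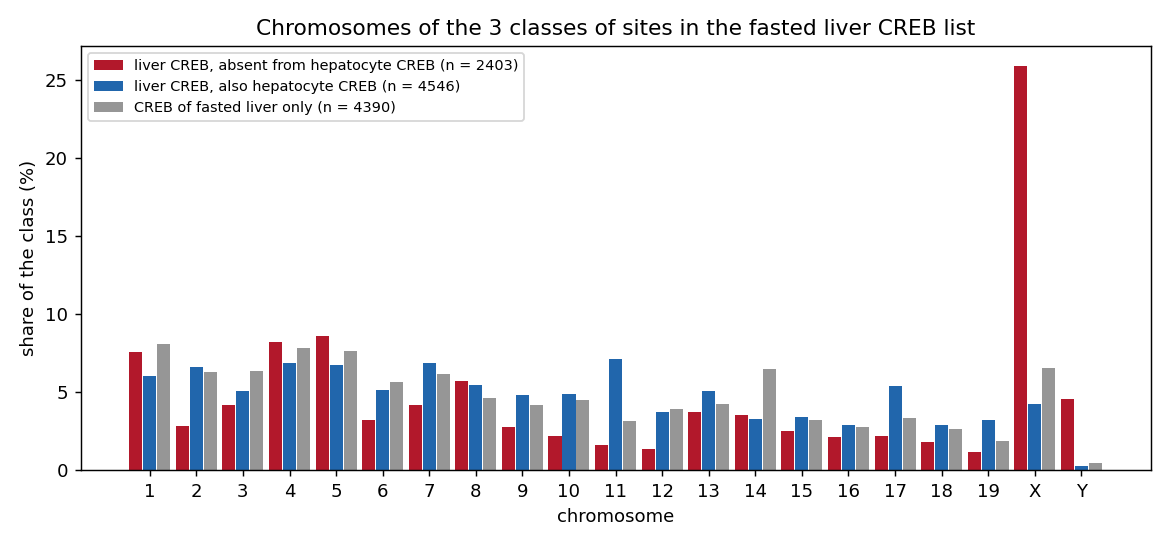
Share of each class of sites of the fasted liver CREB list (vertical axis, percent of the class) on each chromosome. Sites absent from hepatocyte CREB (n = 2403) have 25.9% of their number on X, against 4.25% for sites also in hepatocytes (n = 4546). The whole list has 9.72% of its sites on X.

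The densest stretch was X from 120 to 123 Mb, with 442 members. There the lists held 570 CREB sites in fasted and 535 in fed liver, 481 and 482 phospho-CREB sites in fasted and fed liver, and 484 H3K27ac regions at 10 h, against 83 in fed liver and 97 at 24 h. The hepatocyte CREB lists held 22 sites there with both hormones, 27 with glucagon and 34 without treatment, and the hepatocyte GR list held 162. Members there came in groups. With members chained over gaps of up to 20 kb, 11 groups had 15 or more members. The first 5 had 44, 37, 31, 29 and 29 members and began 220.4 to 232.2 kb apart. The other 6, of 16 to 33 members, were less regular and began 95.3, 620.6, 317.8, 129.3, 182.7 and 121.9 kb after the one before. Pairs of members were most frequent at short distance, with 209 pairs between 1 and 2 kb. From 100 kb on, the median was 56 pairs per 1 kb, and the highest counts were 118 pairs at 441 kb and 115 pairs at 229 kb. How the authors treated reads with several matching positions is not given, and its part in these values was not tested. Below, the share of members at each list is also given for scattered members alone.

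**Figure D2:**
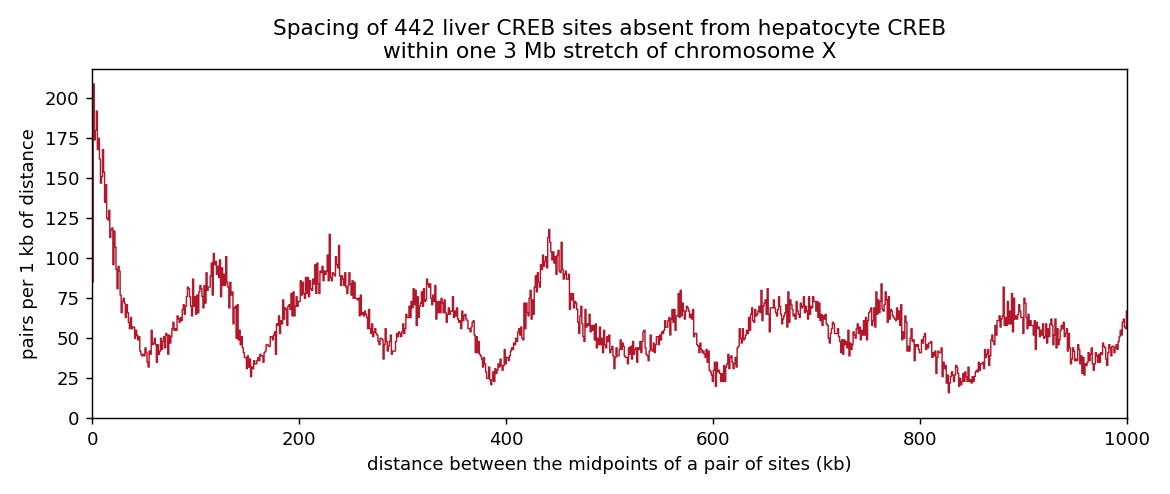
Number of pairs of member sites (vertical axis, per 1 kb) at each distance between their midpoints (horizontal axis, kb) for the 442 members on X between 120 and 123 Mb. Counts are highest at short distance (209 pairs between 1 and 2 kb), and from 100 kb on they rise and fall, with the highest bins at 441 kb (118 pairs) and 229 kb (115 pairs).

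Phospho-CREB was listed at most members, in fasted and in fed liver. In fasted liver 1553 members, 64.6% (62.7 to 66.5), lay at a phospho-CREB site, where 27.4% of the whole fasted CREB list did. In fed liver it was 1608 members, 66.9% (65.0 to 68.8), where 34.6% of the whole list did. Sites also in hepatocytes, though denser in CREB, had shares of 21.2% in fasted and 38.6% in fed liver. The difference, members minus sites also in hepatocytes, was 43.4 percentage points (41.2 to 45.7) in fasted liver and 28.3 (25.9 to 30.6) in fed liver. Scattered members alone had shares of 58.1% in fasted and 60.0% in fed liver. With the dense windows left out of the members and of the sites also in hepatocytes, the differences were 39.2 and 23.1 points. Fasted-only CREB sites were at 13.5% and 12.6%.

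**Figure D3:**
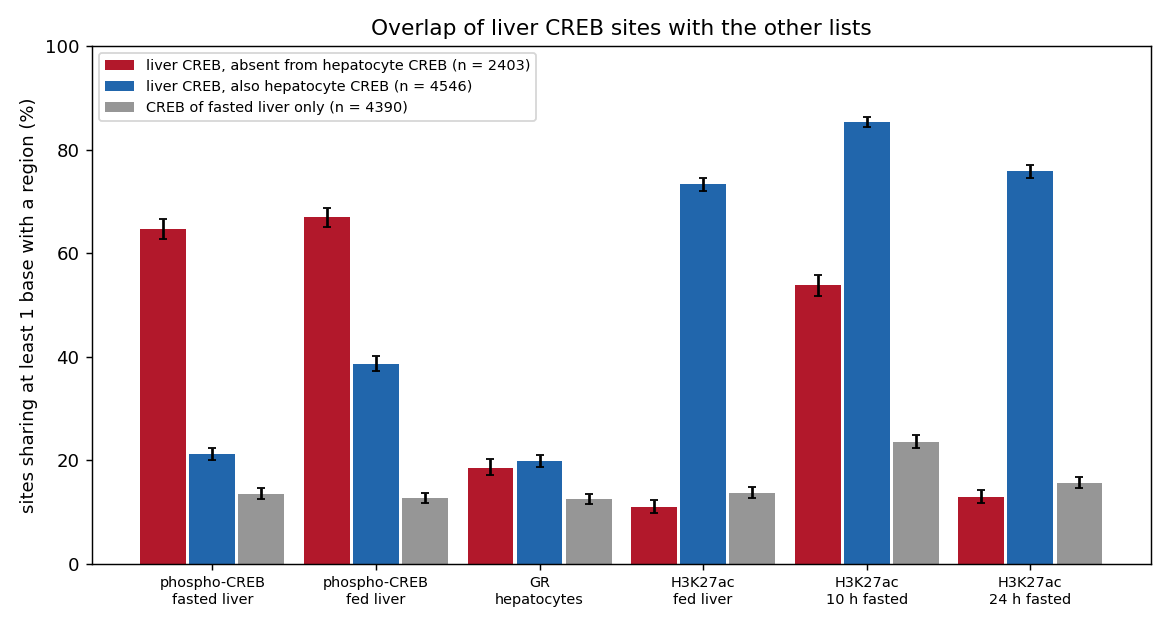
Percent of sites (vertical axis) that share at least 1 base with a region of each of 6 lists. Classes are the members, the sites also in hepatocytes and the fasted-only sites, which are absent from the fed list. Bars have 95% Wilson intervals. Members are higher than sites also in hepatocytes for phospho-CREB (64.6% against 21.2% in fasted liver) and lower for all 3 H3K27ac lists (12.9% against 75.8% at 24 h).

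Most members with phospho-CREB had it in fasted and fed liver alike. There were 1312 members (54.6%) in the fasted and the fed list, where 21.1% of the whole fasted CREB list was, 241 (10.0%) in the fasted list only, 296 (12.3%) in the fed list only and 554 (23.1%) in none. Of scattered members alone, 46.7% were in the pair of lists. Among sites also in hepatocytes, 879 (19.3%) were in the pair of lists, 84 (1.85%) in the fasted list only, 877 (19.3%) in the fed list only and 2706 (59.5%) in none. Of fasted-only CREB sites, 4.49% were in the pair of lists and 78.3% in none. A further 9.04% were in the fasted phospho-CREB list only and 8.15% in the fed one only. Seen from the phospho-CREB lists, 1636 of 6812 fasted sites (24.0%) and 1687 of 7669 fed sites (22.0%) lay at a member. Sites also in hepatocytes met 14.7% of the fasted and 23.5% of the fed phospho-CREB sites, and fasted-only sites 8.66% and 7.24%. The members made up 21.2% of the fasted CREB list. That is no yardstick for these shares, which also count phospho-CREB sites at no fasted CREB site. The phospho-CREB sites at members had a median percentile of 74.7 in the fasted and 68.8 in the fed phospho-CREB list, and those at sites also in hepatocytes 85.0 and 82.7. Midpoints of members and their fasted phospho-CREB sites were a median of 43.75 bp apart.

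Phospho-CREB density followed CREB density among members. Spearman's rho between the percentiles was 0.935 in fasted liver (n = 1553 members) and 0.930 in fed liver (n = 1608), given as a description of sites that differ in width and share each list's libraries. The share of members with fasted phospho-CREB was 33.5% in the lowest of 5 equal classes of CREB density and 92.7% in the highest. At the top, chr10:121200000-121200532 had the highest density of each phospho-CREB list as well (2978 in fasted and 2764 in fed liver). The next 3 members by CREB density were also in the pair of phospho-CREB lists, at percentiles over 99.9. None of these 4 had an H3K27ac region at any time. In all, 334 members (13.9%) were at phospho-CREB in fasted and fed liver with no H3K27ac region, where 5.30% of the whole list was, and 48 of the 334 were on X.

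**Figure D4:**
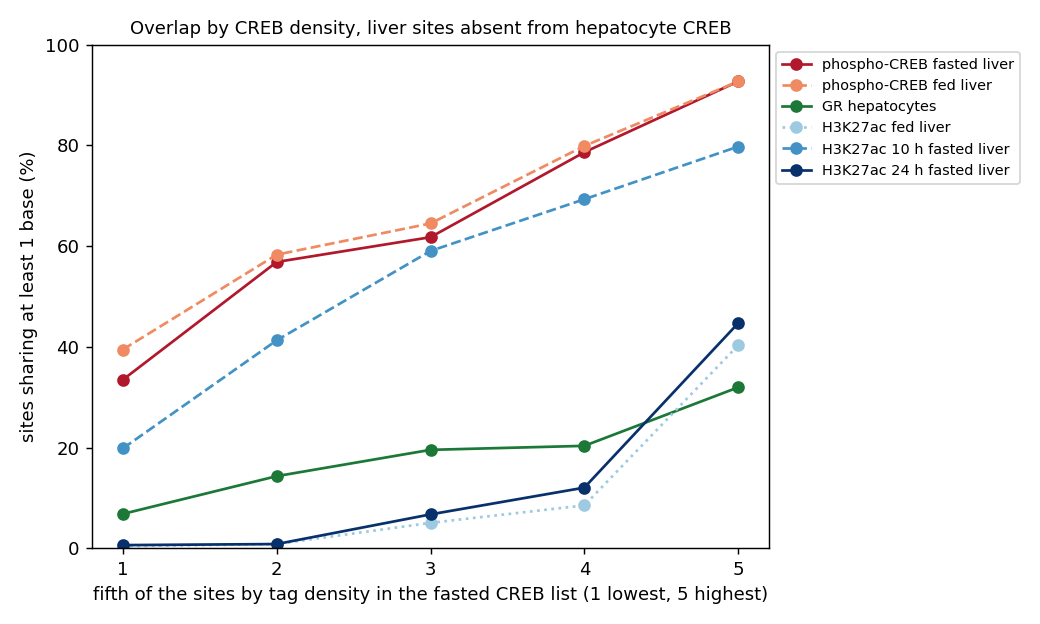
Percent of members (vertical axis) that share at least 1 base with a region of each list, by 5 equal classes of the members' CREB density in fasted liver (horizontal axis, lowest to highest). Overlap is higher in the highest than in the lowest class for all 6 lists, for instance 92.7% against 33.5% for phospho-CREB of fasted liver and 44.7% against 0.620% for H3K27ac at 24 h.

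H3K27ac was listed at fewer members than sites also in hepatocytes at all 3 times. In fed liver 264 members, 11.0% (9.80 to 12.3), lay at an H3K27ac region, where 37.0% of the whole fasted CREB list did. After 10 h of fasting it was 1292 members, 53.8% (51.8 to 55.8), where 54.8% of the whole list did, and after 24 h 311 members, 12.9% (11.7 to 14.3), where 39.2% did. Sites also in hepatocytes had shares of 73.3% in fed liver, 85.4% at 10 h and 75.8% at 24 h. The difference, members minus sites also in hepatocytes, was -62.3 points (-64.0 to -60.5) in fed liver, -31.6 points (-33.8 to -29.4) at 10 h and -62.9 points (-64.7 to -61.0) at 24 h. Without the dense windows it was -66.6, -43.3 and -68.2 points in that order of time. Against fasted-only sites the members differed by -2.75 points (-4.34 to -1.11) in fed liver, 30.2 points (27.8 to 32.5) at 10 h and -2.73 points (-4.42 to -0.981) at 24 h. On autosomes alone the members' shares were 6.46%, 44.1% and 7.60% in that order of time.

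The 10 h list was the long one, and its regions at members were weak. It held 47777 regions, against 29917 in fed liver and 32103 at 24 h. Of the members, 1003 (41.7%) had an H3K27ac region at 10 h and not in fed liver or at 24 h, 233 (9.70%) had one at all 3 times and 1075 (44.7%) at none, against 16.3%, 35.5% and 43.6% of the whole list. In scattered members these shares were 33.2%, 7.06% and 56.5%. Among sites also in hepatocytes, 460 (10.1%) were at 10 h only, 3218 (70.8%) at all 3 times and 569 (12.5%) at none. When the 3 lists were cut to equal length by density, the members' share at 10 h was 16.4%, beside 11.0% in fed liver and 11.7% at 24 h. The 10 h regions at members had a median percentile of 21.7 and a median width of 499 bp, and those at sites also in hepatocytes 80.3 and 1352 bp. Their midpoints were a median of 56 bp from the member's, and 292 bp from the midpoint of a site also in hepatocytes.

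**Figure D5:**
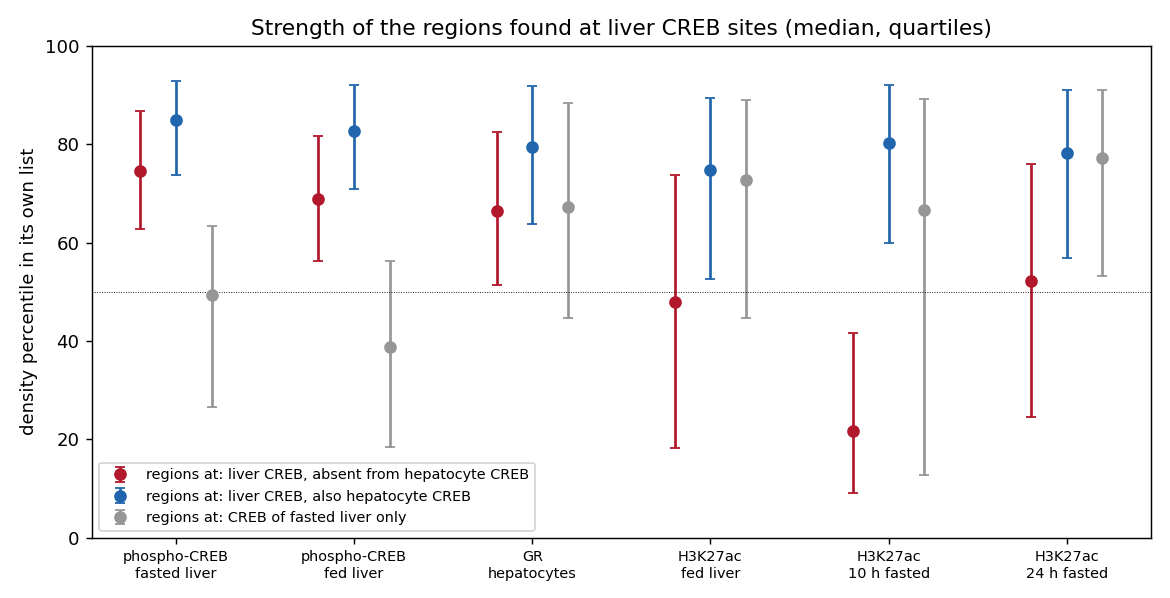
Density percentile of the regions found at liver CREB sites, ranked within the list each belongs to (vertical axis). Points are medians, and lines run between the quartiles. Classes are the members, the sites also in hepatocytes and the fasted-only sites, which are absent from the fed list. The H3K27ac regions of 10 h have a median percentile of 21.7 at members and 80.3 at sites also in hepatocytes.

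The 1003 members with H3K27ac at 10 h alone were mostly phospho-CREB sites, as were those with it at 24 h. Of the 1003, 79.6% were at phospho-CREB in fasted liver and 82.2% in fed liver, and 35.8% lay on X. The phospho-CREB shares were 82.3% and 84.9% for the 311 members with H3K27ac at 24 h. They were 64.6% and 66.9% for all members. In the X stretch of 442 members, 79.6% had H3K27ac at 10 h, against 9.28% in fed liver and 12.2% at 24 h. In scattered members the 10 h share was 41.9%, against 8.54% in fed liver and 9.51% at 24 h. Whether the 10 h list differs through the fasting time or through how the list was made cannot be told apart.

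Members with H3K27ac at 24 h and not in fed liver numbered 61 (2.54%), where 3.06% of the whole list was, and members with it in fed liver and not at 24 h numbered 14 (0.583%), where 0.882% of the whole list was. These shares are near those of the list. The densest of the 61 were on Y and X, led by chrY:2895546-2896122 (CREB density 128), and 24 of the 61 were scattered. The 14 were led by chr3:131011889-131012401, with a CREB density of 386.8 in the fasted list, an H3K27ac region in fed liver and at 10 h, and no phospho-CREB site. The next, chr7:27924529-27925199, was also at GR and at phospho-CREB in fasted and fed liver.

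Members with H3K27ac at all 3 times and phospho-CREB in fasted and fed liver numbered 201 (8.36%), of which 69 were scattered. The class held 6.05% of the whole list, 484 sites also in hepatocytes (10.6%) and 0.0228% of fasted-only sites. Of scattered members alone, 5.13% were in it. The densest member of the class was chr10:6605626-6606207 (CREB density 1510). Its H3K27ac regions stood at percentile 53.0 in fed liver, 36.2 at 10 h and 61.4 at 24 h. The next 4 members by density were on Y. At chrY:2875822-2877456, 1635 bp wide, the overlapping regions were of like width, with 1606 bp for phospho-CREB in fasted and 1382 bp in fed liver, and 1780, 1661 and 1825 bp for H3K27ac in fed liver, at 10 h and at 24 h. This site stood at percentile 99.0 or higher in the fasted CREB list and in these 5 lists. Across the 109 members on Y, the H3K27ac shares were 57.8% in fed liver, 83.5% at 10 h and 65.1% at 24 h. The 12 sites also in hepatocytes on Y had shares of 66.7%, 91.7% and 66.7% in that order of time.

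There were 25 members (1.04%) with H3K27ac at all 3 times and no phospho-CREB site, against 2068 sites also in hepatocytes (45.5%) and 23.3% of the whole list. None of the 25 was on X. The densest, chr3:157588936-157589575, had a CREB density of 27.6 and lay 441 bp from a hepatocyte CREB site. Its H3K27ac regions were strong, at percentiles 92.9 in fed liver, 91.0 at 10 h and 93.3 at 24 h, and between 2089 and 4807 bp wide.

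Over all chromosomes together, GR was listed at a share of members near that of sites also in hepatocytes. The hepatocyte GR list overlapped 446 members, 18.6% (17.1 to 20.2), where 16.7% of the whole fasted CREB list and 19.9% of the sites also in hepatocytes did. Among scattered members the share was 19.02%. The difference, members minus sites also in hepatocytes, was -1.30 percentage points (-3.22 to 0.661), an interval that includes 0. It was 14.5 points with the upper 50% of each list by density, and 0.667 points without the dense windows. At equal CREB density, by weighting 5 density classes, it was -8.38 points. On X alone it was -11.2 points (-18.8 to -4.00), with GR at 22.5% of members and 33.7% of sites also in hepatocytes. On autosomes alone it was -2.07 points (-4.18 to 0.123). Against fasted-only sites the members' share was higher by 6.15 points (4.33 to 8.01).

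The members at GR were denser and more often phospho-CREB sites. Their median CREB density was 11.4, against 7.02 in the 1957 members without GR. Phospho-CREB was listed at 85.9% of them in fasted and 85.7% in fed liver, against 59.8% and 62.6% of members without GR, and H3K27ac at 10 h at 72.9% against 49.4%. Of the members at phospho-CREB in fasted and fed liver 26.7% had GR, of those in 1 phospho-CREB list 12.1%, and of those in none 5.60%. The GR regions lay farther from members than from sites also in hepatocytes, with a median of 122.5 bp against 92.5 bp between midpoints. The densest member at GR, chr17:36621304-36622075, was in all 6 lists, with a GR density of 33.5 (percentile 97.5) and a CREB density of 163.6. The GR list is from cultured hepatocytes, where the members had no CREB site, and not from liver.

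Dense and scattered members differed in most lists. The difference, dense minus scattered, was 14.8 points (11.0 to 18.6) for phospho-CREB in fasted liver, 15.8 (12.1 to 19.5) in fed liver, 5.55 (3.01 to 8.17) for H3K27ac in fed liver, 26.97 (23.1 to 30.7) at 10 h and 7.80 (5.06 to 10.6) at 24 h. For GR it was -1.04 points (-4.14 to 2.11). Dense members also had the higher CREB density, with a median of 9.84 against 5.83 in scattered ones.

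A group of 393 members (16.4%) was in none of the 6 lists, against 263 sites also in hepatocytes (5.79%), 2395 fasted-only sites (54.6%) and 26.9% of the whole list. It was led by chr16:10832530-10832842, with a CREB density of 3063 at percentile 99.96 in the fasted list and 99.94 in the fed list, and by chr6:128778727-128779376, with a CREB density of 1033. Of the 393, 284 were scattered. By the number of the 6 lists that a member met, 409 met 1, 486 met 2, 671 met 3, 234 met 4, 116 met 5 and 94 met all 6. These counts were made for members only, so whether they differ from those of the whole list was not tested. The most frequent combination was phospho-CREB in fasted and fed liver with H3K27ac at 10 h only and no GR site, in 537 members (22.3%), where 5.89% of the whole list was.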

How the data were processed

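Chromatin of liver and hepatocytes was immunoprecipitated and sequenced. Of 13 deposited peak lists, 11 were matched to their group by the library numbers that list names and labels share. A further 2 lists, holding 8 value columns, could not be matched and stayed out. The submitters' processing notes name CASAVA 1.8 and build mm9. The list names hold the word hotspot for H3K27ac, and a false discovery rate tag for the CREB, phospho-CREB and GR lists. The aligner, the further settings of peak calling and the handling of reads with several positions were not given in the sources used here. Per the file headers, the authors gave every region its highest tag density, a signal whose normalisation is not stated, and it served only within a list. The authors' peak calling also gave each region a z score, per the file headers, and it was not used for any result. The deposited p-value, which per the file headers the authors gave for each region, was not used.

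Regions overlapped if they shared at least 1 base. No test was run over regions, since each group had 1 list. Members and lists were chosen with earlier results of these data known. Regions named were the 5 densest members overall and in each class by phospho-CREB, H3K27ac and GR overlap, those nearest to the rule's boundary, and those of extreme density or rank change; the text gives the leading ones. Alternatives were other overlap rules, the upper 50% of each list, equal list lengths, no X and Y, and sites weighted by width. The overlap code was tested on simulated data, where 1436 of 1436 planted members among 11339 regions were found. Tools were matplotlib 3.10.9, SciPy 1.17.1, pandas 2.3.3 and numpy 2.4.6 under Python 3.11.15. Positions are those of the lists, in mm9. Since the gene and promoter tables at hand are of GRCm38.p6, genes, cell type markers and sequences were not assigned.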

Additional observations from a re-analysis of the deposited data

How the results depend on the processing

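Shares below are percent of members, and differences are percentage points, members minus sites also in hepatocytes. The GR difference was the only one that turned its direction, to 14.5 with the upper 50% of each list by density and 0.667 without the dense windows; the cause was not tested. With the upper 50%, 1115 sites were members, with shares of 85.7 (phospho-CREB fasted), 86.3 (phospho-CREB fed), 29.0 (GR), 21.6 (H3K27ac 10 h) and 14.3 (24 h), and differences of 67.9 and 47.0 for phospho-CREB fasted and fed, and -56.4, -59.1 and -58.7 for H3K27ac fed, 10 h and 24 h. Without the dense windows, an alternative added after seeing the data, 1346 members remained, with shares of 58.1, 60.0, 8.54, 41.9 and 9.51 and differences of 39.2, 23.1, -66.6, -43.3 and -68.2 for phospho-CREB fasted and fed and H3K27ac fed, 10 h and 24 h. Without X and Y these shares were 58.7, 60.8, 6.46, 44.1 and 7.60, the differences 38.8, 23.1, -67.4, -41.1 and -68.8, and the GR share 17.0. With gaps of up to 500 bp the shares were 69.4 and 70.5 for phospho-CREB fasted and fed, 22.0 for GR and 57.8 for H3K27ac at 10 h, and the H3K27ac differences -60.3 in fed liver and -28.6 at 10 h. H3K27ac differences in fed liver, at 10 h and at 24 h were -56.7, -27.8 and -57.4 with 50% of the shorter region shared, -47.1, -15.5 and -47.1 in 500 bp windows, -59.1, -29.3 and -59.2 weighted by width, and -41.1, -20.4 and -41.1 weighted by density (added after seeing the data). Phospho-CREB differences in fasted and fed liver were 50.2 and 42.3 weighted by width and 40.1 and 30.8 by density, and the GR difference by density was -8.38. At equal list length the H3K27ac shares were 16.4 at 10 h and 11.7 at 24 h. The remaining 48 values, those without members of density over 1000 (added later) among them, stayed within their counting interval or, for the number of members, within 1.5 times. No paired analysis was possible because the lists hold 1 value per region and none per library, and no replicate could be left out for the same reason. Unknown depth limits what absence from a list means.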

Other observations

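The 12 members with a CREB density over 1000 in the fasted list were between 313 and 650 bp wide, and 11 of them were on autosomes and 1 on X. In the fed list 30 members met a site with a density over 1000. Phospho-CREB percentiles of the 1312 members in the fasted and fed phospho-CREB lists were a median of 4.21 points higher in the fasted than in the fed list (quartiles 0.834 and 8.18), and these lists differ in length.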
